A study of Homo sapiens with 101 samples.

Results

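A panel of 10 genes of the cell-death machinery, 9 that promote apoptosis and 1 that opposes it, was followed in HT1080 cells exposed to 11 compounds. The genes were FAS, TNFRSF10B, BBC3, PMAIP1, BIK, BCL2L11, BAX, APAF1 and CASP6 on the proapoptotic side and BCL2L1 on the antiapoptotic side. Every probe set, a group of probes for 1 transcript, that the array's annotation assigns to one of these genes alone was taken, which gave 31 of the 40914 probe sets with a single gene. A probe set was tested where its mean reached a log2 signal of 4 in at least 1 of 17 groups, and 24 of the 31 did so. The 7 untested ones were 1 of 4 for TNFRSF10B, 3 of 7 for BCL2L11, 1 of 3 for APAF1 and 2 of 4 for BCL2L1. Of the 24 tested, 5 reached that level in only some groups, which were 3 groups for 1 FAS probe set, 4 for 1 of APAF1, 6 for 1 of BCL2L11, 8 for the BIK probe set and 14 for 1 of BCL2L1.

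HT1080 is a human fibrosarcoma cell line, and each compound was given at a single dose that raised total p53 protein 1.5-fold, with vehicle at 0.1%. The labels give the compounds as codes, which are spelled out where the usual meaning is plain. Against the 6 samples named DMSO_pooled stood mitomycin C (MMC, 0.1 µM, n = 5), neocarzinostatin (NCS, 10 ng/ml, n = 6), hydrogen peroxide (H2O2, 100 µM, n = 5), ethylnitrosourea (ENU, 2 mM, n = 6), the compound coded GAD (2 mM, n = 6) and tert-butylhydroquinone (tBHQ, 200 µM, n = 6). These 6 comparisons therefore share their control samples, and what was pooled in them is not stated in the labels. The others had 6 control samples each: the compound coded BRO (600 µM) against BRO_DMSO, methyl methanesulfonate (MMS, 200 µM) against MMS_CTL, curcumin (CUR, 10 µM) against CUR_DMSO, etoposide (ETP, 0.3 µM) against ETP_DMSO and quercetin (QUE, 30 µM) against QUE_DMSO, each compound in 6 samples. The exposure time is not given in the sources used here, and nothing in the labels says that replicates were separate cultures, so a p-value measures the spread between these samples only. Total RNA of whole cultures was measured, in which fewer cells of a kind and less RNA per cell cannot be told apart.

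The labelled cell type matched its markers. In all 17 groups the mesenchymal markers VIM (group means 12.81 to 13.25), FN1 (11.19 to 12.56) and CD44 (11.69 to 12.42) were high, and EPCAM (2.25 to 3.07), CDH1 (2.0 to 2.81), PTPRC (2.09 to 3.0), PECAM1 (2.97 to 3.99) and ALB (1.9 to 2.92) lay below 4. SPARC (10.82 to 12.02), MMP14 (9.45 to 10.5) and S100A4 (4.52 to 6.0) were above 4 in all groups. KRT18, listed as an epithelial marker, was high too (9.77 to 11.14). Some of these markers moved with a compound: FN1 fell in GAD, BRO and MMS, SPARC in GAD and MMS, S100A4 in CUR, and KRT18 in tBHQ, MMS and QUE. Their part in the results below was not tested. CDKN1A, the cell-cycle inhibitor that p53 switches on, rose in 9 compounds, all but tBHQ and CUR, and MDM2, the p53 ubiquitin ligase, rose in 8.

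A pair of libraries went against their labels, and results in ETP and QUE that turn on them are given with and without them. For each library the difference from its control mean was correlated, across the 21612 tested probe sets, with the mean response of the other ETP or the other QUE libraries, number 2 left out of those means. The library labelled ETP replicate 2 had r = 0.90 with QUE and 0.19 with ETP, while the other 5 ETP libraries had 0.47 to 0.84 with ETP and 0.06 to 0.14 with QUE. The library labelled QUE replicate 2 had r = 0.61 with ETP and 0.11 with QUE, while the other 5 QUE libraries had 0.79 to 0.94 with QUE and 0.08 to 0.20 with ETP. The labels were kept as given. Values "without number 2" leave out the treated library of that label.

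Apoptosis can be started from the cell surface or from inside the cell. Death receptors such as FAS bind ligands of the TNF superfamily and assemble a complex that activates initiator caspases. In the intrinsic route, BH3-only proteins neutralise survival proteins such as BCL-xL, the product of BCL2L1, so that BAX and BAK open the outer mitochondrial membrane. Released cytochrome c then joins APAF1 in the apoptosome, which activates the caspase cascade, with CASP6 among its executioners. Several of these genes, among them FAS, TNFRSF10B, BBC3, PMAIP1, BAX and APAF1, are established transcriptional targets of p53, which is why they are read in DNA damage studies.

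The start sites of these genes were searched for short motifs, because several members are p53 targets. RefSeq windows on GRCh38.p14 of 300 bases, from 250 before to 50 after a start site, were matched for 8 of the 10 genes in 11 windows, with 3 windows for FAS and 2 for BCL2L1. BIK and TNFRSF10B are named only. The consensus p53 half-site, a 10-base motif searched on both strands with no mismatch, was found in 1 of the 11 windows, which is one of FAS, and in 6.63% of all 35114 windows. The other FAS windows and those of BBC3, PMAIP1, BAX and APAF1 held no match either. The FAS window (chr10:88991181-88991480, plus strand) carries it in capitals, with its first base at -122 from the start site, and a window of BCL2L1 (chr20:31722819-31723118, minus strand), the antiapoptotic member called in as many compounds as FAS, is shown for comparison and holds no match.
FAS: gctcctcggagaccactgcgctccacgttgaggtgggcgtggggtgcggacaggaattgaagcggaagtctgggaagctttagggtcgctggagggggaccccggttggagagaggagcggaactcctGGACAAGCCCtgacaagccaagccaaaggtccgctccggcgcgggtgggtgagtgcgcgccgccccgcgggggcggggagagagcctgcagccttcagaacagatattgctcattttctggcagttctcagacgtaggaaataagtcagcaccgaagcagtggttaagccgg
BCL2L1: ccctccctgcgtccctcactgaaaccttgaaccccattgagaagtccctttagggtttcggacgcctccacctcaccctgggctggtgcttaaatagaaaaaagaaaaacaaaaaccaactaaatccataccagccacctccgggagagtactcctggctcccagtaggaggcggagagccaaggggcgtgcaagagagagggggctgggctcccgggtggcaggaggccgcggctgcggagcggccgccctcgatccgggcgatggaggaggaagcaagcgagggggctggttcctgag
The GGGCGG box was in 9 of the 11 windows, from 7 of the 8 genes, and in 45.0% of all windows. CCAAT was in 4 of the 11 (BBC3, BCL2L11, BAX and APAF1) and in 34.6% of all. TATAAA was in 1 of the 11 (BCL2L1) and in 11.5% of all. TGACTCA was in 1 of the 11 windows (BBC3) and in 4.95% of all windows, and TGACGTCA was in no member window and in 1.85%. These are matches of letters on either strand in a short window and no measurement of binding.

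The plot of differences gives the response of every gene to every compound. A probe set was called where limma's adjusted p (Benjamini-Hochberg over all 21612 probe sets) was under 0.05 and the difference was at least 1.5-fold, 0.585 on the log2 scale. A gene is represented by its brightest probe set, judged by the mean of all samples, unless another is named. These are 204780_PM_s_at for FAS, 209295_PM_at for TNFRSF10B, 211692_PM_s_at for BBC3, 204285_PM_s_at for PMAIP1, 205780_PM_at for BIK, 225606_PM_at for BCL2L11, 208478_PM_s_at for BAX, 204859_PM_s_at for APAF1, 209790_PM_s_at for CASP6 and 212312_PM_at for BCL2L1. FAS and BCL2L1 were each called higher in 7 of the 11 compounds, APAF1 in 3, PMAIP1 and CASP6 in 2, BBC3 and BIK in 1, BAX and TNFRSF10B in none, and BCL2L11 was called lower in 2. These calls ignore the replicate number. With that number as a block FAS was called in H2O2 and CUR too, as given with its values. Counting any of its probe sets, FAS was called in 9 compounds without the block. For the representative probe sets of BAX and TNFRSF10B, limma's adjusted p was under 0.05 without the fold minimum in 1 and 2 compounds. Their unadjusted p in limma was under 0.05 in 5 and 4.

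**Figure D1:**
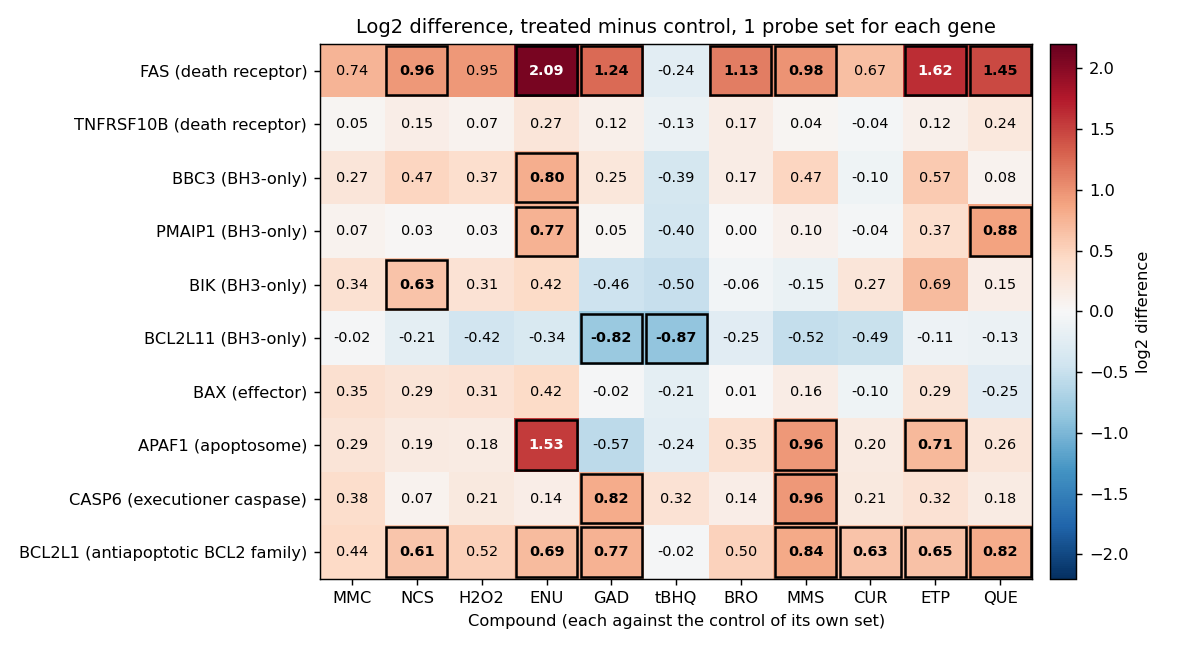
Log2 difference, treated minus control, of the representative probe set of each gene (rows, with role) for each compound (columns), on a colour scale from blue (lower) to red (higher). Boxed bold values passed limma's adjusted p under 0.05 and 1.5-fold; FAS and BCL2L1 have 7 boxes each, and BCL2L11 is the row with boxes for a fall.

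Counted over all 24 tested probe sets, ENU gave the most calls, 12 higher, where 4.67% of all tested probe sets were called higher and 5.59% lower. NCS had 8 higher (1.12% of all higher, 0.916% lower), QUE 8 higher (7.02% and 5.93%), ETP 7 higher (1.54% and 0.652%), MMS 9 higher (4.34% and 5.85%) and BRO 5 higher (2.86% and 3.96%). H2O2 had 2 higher (0.523% and 0.134%) and CUR 2 higher (1.15% and 0.648%). No member probe set was called lower in these 8 compounds. MMC had 0 calls (0.0972% of all higher and 0.0% lower), although in limma 12 of the 24 had an unadjusted p under 0.05, all on the higher side. With the replicate block 3 were called higher in MMC (62 of all 21612 probe sets), 6 in H2O2 (200) and 4 in CUR (578). GAD had 9 higher (12.6% of all) and 2 lower (14.1%). tBHQ had 1 lower (4.39% of all) and 0 higher (5.45%), with 1 higher and 9 lower at an unadjusted p under 0.05 in limma. The shares of all probe sets at that unadjusted threshold are not given here. The unadjusted counts of MMC and tBHQ are therefore not read against the rest of the array. Without number 2, ETP and QUE had 8 higher each, where 2.04% and 9.80% of all probe sets were called higher. The 5 FAS probe sets give many of these calls, and they measure 1 gene. The median difference over the 24 was 0.54 in ENU (0.01 over all probe sets), 0.38 in ETP (-0.01), 0.34 in MMS (0.07), 0.29 in MMC (0.01), 0.27 in NCS (0.01), 0.25 in QUE (0.01), 0.20 in H2O2 (0.01), 0.16 in BRO (0.0), 0.08 in GAD (0.05), 0.08 in CUR (0.06) and -0.19 in tBHQ (0.01). In the 7 compounds in which the antiapoptotic BCL2L1 was called, it rose, and in 6 of them the proapoptotic FAS rose as well, while in GAD, one of the 6, the proapoptotic BCL2L11 fell.

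FAS, the receptor of FAS ligand, showed the largest rise of any member. In ENU its log2 signal was 9.72, 9.85 and 10.08 (lowest, median and highest of 6), in DMSO_pooled 7.37, 7.52 and 8.65. All 6 ENU samples lay above all 6 controls, and the mean difference was 2.09 ± 0.20 (SE), a 4.25-fold rise (adjusted p = 9e-06, limma). The controls were spread unevenly, with DMSO_pooled replicates 1 and 2 at 8.28 and 8.65 and the other 4 between 7.37 and 7.53. GAD (8.91, 9.01 and 9.21) was also above every control, with a difference of 1.24 ± 0.20 (adjusted p = 0.00011, limma). NCS (8.63, 8.75 and 8.97) had 5 of 6 samples above every control and a difference of 0.96 ± 0.20 (adjusted p = 0.015, limma).

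In the sets with their own controls FAS rose in 4 of 5 compounds without any overlap of the groups. ETP had 8.81, 9.33 and 9.50 against 7.40, 7.66 and 7.74 in ETP_DMSO, a 3.08-fold rise (1.62 ± 0.12, adjusted p = 1.5e-05, limma), which was 1.57 ± 0.12 without number 2. QUE had 8.59, 8.86 and 9.32 against 7.32, 7.48 and 7.66 in QUE_DMSO, a 2.73-fold rise (1.45 ± 0.13, adjusted p = 0.00011, limma), which was 1.51 ± 0.12 without number 2. Neither call turned on number 2. BRO had 7.97, 8.11 and 8.27 against 6.69, 6.92 and 7.46 in its control (1.13 ± 0.12, adjusted p = 4.4e-05, limma). MMS had 8.18, 8.40 and 8.71 against 6.77, 7.57 and 7.68 (0.98 ± 0.15, adjusted p = 0.00041, limma).

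In the remaining 4 compounds FAS was not called by its representative probe set. Counting every FAS probe set, calls were made in 9 compounds, with H2O2 and CUR added. In H2O2 the call came from 1 probe set with both means under 4. In CUR 1 other FAS probe set was called higher, in the fit without the block. H2O2 samples stood at 8.84, 8.89, 8.63, 8.83 and 8.57, and the difference of 0.95 ± 0.22 missed the threshold (adjusted p = 0.061, limma). With the replicate number as a block, it was 0.88 ± 0.16 and passed (adjusted p = 0.026, limma), and without DMSO_pooled replicate 1 or 2 it was 1.04 or 1.12 (adjusted p = 0.045 and 0.011). CUR had 7.30, 7.88 and 8.16 against 6.25, 7.33 and 7.49, a difference of 0.67 ± 0.21 (adjusted p = 0.088, limma), and passed with the block (0.67 ± 0.10, adjusted p = 0.0051) and without CUR replicate 5 (0.78, adjusted p = 0.033). MMC samples stood at 8.86, 8.73, 8.53, 8.32 and 8.26, a difference of 0.74 ± 0.23 (adjusted p = 0.42, limma). With the block MMC gave 0.65 ± 0.13 (adjusted p = 0.065), although 2 other FAS probe sets with signals over 4 then passed (0.71 and 0.73, adjusted p = 0.043 and 0.033). In 1 fit of all groups the MMC difference of 0.74 passed (adjusted p = 0.015, limma). In tBHQ the FAS mean was below that of the controls, with 7.22, 7.43 and 8.11, a difference of -0.24 ± 0.24 (adjusted p = 0.49, limma).

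**Figure D2:**
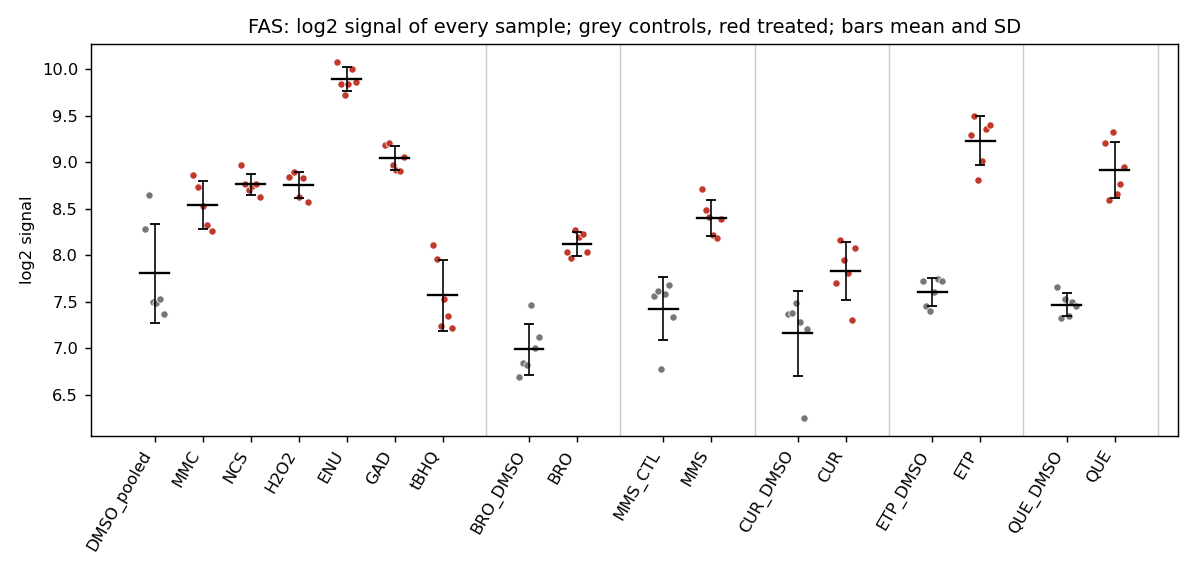
FAS log2 signal (vertical axis) of every sample by group (horizontal axis), controls in grey and treated samples in red, with vertical lines between sets, each with its own control; horizontal bars are means and whiskers SD. ENU samples lie between 9.72 and 10.08, above the other groups, and DMSO_pooled holds 2 samples, at 8.28 and 8.65, apart from its other 4.

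The responses of compounds were compared with each other as differences of differences, in 55 pairs. Over all tested probe sets a pair had from 0.0% to 30.0% called, with a median of 9.63%. The share was 27.5% between MMC and GAD, 4.9% between MMC and BRO, and as low as 0.0% between NCS and H2O2. For FAS 22 pairs were called. The ENU response exceeded those of 9 of the other 10 compounds, by 0.64 (QUE, adjusted p = 0.029, limma) to 2.32 (tBHQ), and against ETP the difference was 0.47 (95% interval 0.02 to 0.91, adjusted p = 0.19). Without number 2 of ETP and QUE the difference from QUE was 0.57, under the fold minimum. The tBHQ response was below those of all 10 others, by 0.91 (CUR, adjusted p = 0.0032) to 2.32. ETP and QUE differed by 0.17 (95% interval -0.27 to 0.62).

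The FAS probe sets moved together where they had signal. Across the 11 compounds the differences of the 4 probe sets with signals over 4 in all groups correlated at 0.99 to 1.0, a description in which 6 points share controls. In ENU those 4 gave 2.08 to 2.25. The other FAS probe set (233820_PM_at) had means under 4 in all but 3 groups and gave at least 0.89 in ENU, where its control mean was 2.98. Of its 7 calls, those in NCS, H2O2, GAD and BRO had both means under 4, so no fold is given.

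TNFRSF10B, the TRAIL receptor DR5, was abundant in every group and was called in no compound. Its group means ranged from 11.52 to 12.33, and its differences from -0.13 in tBHQ to 0.27 in ENU. All 6 ENU samples (11.97 to 12.08) lay above all 6 controls (11.68 to 11.84), and the shift of 0.27 ± 0.06 was 1.21-fold (adjusted p = 0.0036, limma). QUE (12.26 to 12.48 against 11.97 to 12.16) gave 0.24 ± 0.07 (adjusted p = 0.019, limma) and 0.25 ± 0.07 without number 2. NCS samples (11.87 to 12.01) also lay above every control, with 0.15 ± 0.06 (adjusted p = 0.15). No pair of compounds was called for this gene. A weaker probe set (209294_PM_x_at), with group means of 7.12 to 8.11, gave a different sign in GAD, -0.26 ± 0.07 (adjusted p = 0.0042, limma) against 0.12 ± 0.06 for the abundant one, and its differences correlated with those of the abundant one at 0.58. This weaker probe set gave 0.33 in NCS (adjusted p = 0.0089, limma) and 0.34 in ETP (adjusted p = 0.044, limma). A further one (210405_PM_x_at) gave 0.36 in NCS (adjusted p = 0.0066, limma) and -0.30 in GAD (adjusted p = 0.0015, limma). None of these reached 1.5-fold.

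The BH3-only genes were each called in 1 or 2 compounds. PMAIP1, which encodes NOXA, a protein that binds MCL1, rose in ENU and QUE. In ENU it had 10.67, 10.78 and 10.92 against 9.75, 10.03 and 10.17, with no overlap, a 1.71-fold rise (0.77 ± 0.09, adjusted p = 4.2e-05, limma). In QUE it had 10.18, 11.12 and 11.29 against 9.60, 10.15 and 10.42, a 1.83-fold rise (0.88 ± 0.19, adjusted p = 0.0071, limma). The lowest QUE value, 10.18, was that of the library labelled replicate 2, and without it the other 5 lay between 10.82 and 11.29, all above every control, with 1.03 ± 0.15 (adjusted p = 0.00016, limma).

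In ETP the library labelled replicate 2 was the highest for PMAIP1. The samples stood at 9.37, 10.49 and 11.03 (lowest, median and highest), with 11.03 from that library, and the difference was 0.37 ± 0.23 (adjusted p = 0.42, limma), or 0.25 ± 0.22 without it. ETP replicate 3 (9.37) and ETP_DMSO replicate 3 (9.40) were both far below their groups. Between ETP and QUE the PMAIP1 response differed by 0.50 with all libraries (adjusted p = 0.11) and by 0.78 (adjusted p = 6e-04, limma) without number 2. In tBHQ all 6 samples (9.51 to 9.67) were below every control, a difference of -0.40 ± 0.08 (adjusted p = 0.0028, limma) that did not reach 1.5-fold. The other 7 compounds had differences between -0.04 and 0.10. ENU and QUE each exceeded 8 other compounds in the pairwise comparison, all but each other and ETP.

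**Figure D3:**
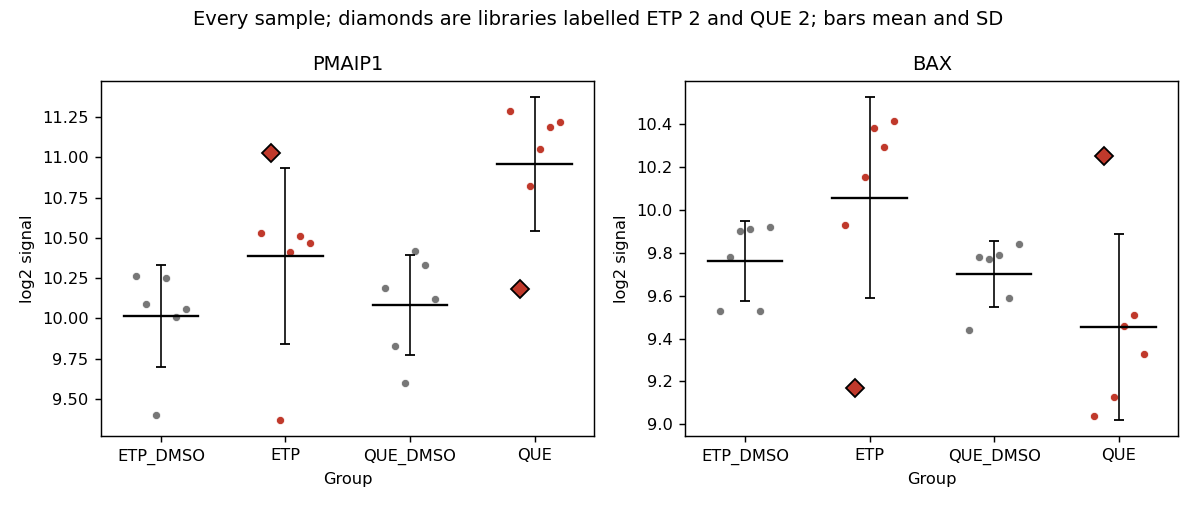
Log2 signal (vertical axis) of PMAIP1 (left) and BAX (right) in every sample of ETP_DMSO, ETP, QUE_DMSO and QUE (horizontal axis), with bars for mean and SD; diamonds mark the libraries labelled ETP 2 and QUE 2. For PMAIP1 the ETP diamond is at 11.03, within the other QUE values, and for BAX the QUE diamond is at 10.25, within the other ETP values.

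BBC3, which encodes PUMA, was called in 1 compound, ENU, from a low level. ENU samples had 5.14, 5.37 and 5.92 against 4.33, 4.61 and 5.22 in DMSO_pooled, a 1.74-fold rise (0.80 ± 0.16, adjusted p = 0.0019, limma), with 5 of 6 above every control. ETP fell just short of the fold minimum, with 4.73, 5.08 and 5.23 against 4.28, 4.43 and 4.73 (0.57 ± 0.11, 1.49-fold, adjusted p = 0.012, limma), and it passed without number 2 (0.63 ± 0.10, adjusted p = 0.0021) or without ETP_DMSO replicate 2 or 4 (0.62 and 0.61). MMS gave 0.47 ± 0.15 (adjusted p = 0.032, limma) and NCS 0.47 ± 0.16 (adjusted p = 0.10), which passed without DMSO_pooled replicate 4 (0.59, adjusted p = 0.040). The difference between the ENU and ETP responses was 0.23 (95% interval -0.20 to 0.66), so a difference between them was not shown. ENU exceeded 4 compounds, tBHQ, CUR, QUE and BRO, by 0.63 to 1.19, and the tBHQ response was below those of 7.

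BIK, a BH3-only protein of the endoplasmic reticulum, lay near the background in most groups. Its mean reached 4 in 8 of 17 groups. In NCS it had 4.28, 4.38 and 4.87 against 3.22, 3.91 and 4.27, and all 6 samples were above every control (adjusted p = 0.043, limma). Since the control mean was 3.82, not well above background, the rise is at least 0.45 on the log2 scale, which is under the fold minimum. This call was lost when any 1 of 11 of the 12 libraries was left out (adjusted p from 0.051 to 0.10). ETP had 4.47, 4.89 and 5.45 against 3.99, 4.21 and 4.53, a difference of 0.69 ± 0.20 (adjusted p = 0.077, limma), and it passed without number 2 (0.79 ± 0.19, adjusted p = 0.027) and with the replicate block (0.69 ± 0.13, adjusted p = 0.025). In GAD and tBHQ both means were under 4, so no fold is given.

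BCL2L11, which encodes BIM, was the member called lower. Lower calls were no more frequent among the 24 member probe sets than over all. They were 2 in GAD, where 14.1% of all were called lower, and 1 in tBHQ (4.39%). In tBHQ it had 6.02, 6.30 and 6.84 against 6.87, 7.28 and 7.55, and in GAD 6.16, 6.38 and 6.74 against the same controls. No sample of either overlapped the controls, and the differences were -0.87 ± 0.15 in tBHQ (adjusted p = 0.00066, limma) and -0.82 ± 0.12 in GAD (adjusted p = 6.9e-05, limma). MMS samples (6.07 to 6.35) also lay below all controls, the lowest of which was 6.46, with -0.52 ± 0.09 (adjusted p = 0.0012, limma), under the fold minimum, and at -0.59 past it without MMS_CTL replicate 3. The other 8 compounds ranged from -0.49 in CUR (adjusted p = 0.12, and -0.59 with 0.037 without CUR replicate 5) to -0.02 in MMC. All 11 differences of this probe set were below 0 in sign. Its probe sets disagreed: a second one (1558143_PM_a_at) fell in GAD (-0.75 ± 0.12, adjusted p = 8.2e-05, limma) and gave -0.46 ± 0.10 in tBHQ, whereas another with similar signal (1553096_PM_s_at) gave -0.09 ± 0.10 in GAD and -0.17 ± 0.09 in tBHQ. The latter was above 0, without a call, in MMC (0.08), NCS (0.16), H2O2 (0.07), ENU (0.03), BRO (0.22), ETP (0.25) and QUE (0.14). The pairwise test called 8 pairs, in which GAD and tBHQ were each below MMC, NCS, ETP and QUE.

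BAX, the effector that perforates the mitochondrial membrane, was called in no compound. It was expressed at group means of 8.75 to 10.05. In ENU (9.68 to 9.97) all 6 samples lay above all controls (9.23 to 9.49), and the difference of 0.42 ± 0.08 was 1.34-fold (adjusted p = 0.0011, limma). All 5 MMC samples (9.51, 9.61, 9.73, 9.86 and 9.79) were above every control too, with 0.35 ± 0.08 (adjusted p = 0.25, limma).

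ETP and QUE gave BAX values on opposite sides of their controls. With all libraries the differences were 0.29 ± 0.19 in ETP (adjusted p = 0.44, limma) and -0.25 ± 0.17 in QUE (adjusted p = 0.29, limma). Without number 2 they were 0.47 ± 0.11 in ETP (9.93 to 10.41, adjusted p = 0.025) and -0.41 ± 0.11 in QUE (9.04 to 9.51, adjusted p = 0.0083). Neither reached 1.5-fold. The difference between the responses was 0.54 with all libraries (adjusted p = 0.035, limma) and 0.88 without number 2 (adjusted p = 5.8e-08, limma). In all, 3 pairs of compounds were called for BAX, and 7 without number 2.

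APAF1, the scaffold of the apoptosome, had the largest rise after FAS. In ENU it had 8.62, 8.77 and 9.11 against 7.01, 7.21 and 7.64, a 2.89-fold rise (1.53 ± 0.13, adjusted p = 4e-06, limma). In MMS it had 7.54, 7.78 and 7.98 against 6.23, 6.87 and 7.11, a 1.95-fold rise (0.96 ± 0.13, adjusted p = 2e-04, limma). In ETP it had 8.04, 8.38 and 8.62 against 7.11, 7.70 and 8.03 (0.71 ± 0.17, adjusted p = 0.036, limma). In these 3 compounds every treated sample was above every control. The ETP call was the least firm, being lost when any of 8 of the 12 libraries was left out (adjusted p from 0.055 to 0.088), but without number 2 it was 0.77 ± 0.17 (adjusted p = 0.016). A dimmer APAF1 probe set (211554_PM_s_at) gave 0.39 in ETP (adjusted p = 0.042, limma), under the fold minimum. It was called higher in ENU, where its control mean was under 4.

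GAD was the compound in which APAF1 was lower. Of its 6 samples (6.53, 6.71 and 7.03) 5 lay below every control, and the difference of -0.57 ± 0.12 (adjusted p = 0.0013, limma) fell short of 1.5-fold. It passed, at -0.63 to -0.59, when GAD replicate 1 or DMSO_pooled replicate 3, 4 or 6 was left out. APAF1 had the most pairs called, 26 of 55. ENU exceeded 9 others by 0.82 to 2.10, and MMS exceeded 8 by 0.61 to 1.53. Between ENU and MMS, both alkylating agents, the difference was 0.57 (95% interval 0.20 to 0.93, adjusted p = 0.029), under the fold minimum, and it passed after quantile normalization. The GAD response was below those of 9 compounds, all but tBHQ.

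CASP6, an executioner caspase, rose in a different pair of compounds. In MMS it had 8.15, 8.21 and 8.44 against 6.71, 7.36 and 7.64 (0.96 ± 0.13, 1.94-fold, adjusted p = 2e-04, limma), and in GAD 8.14, 8.27 and 8.34 against 6.87, 7.45 and 7.76 (0.82 ± 0.13, 1.77-fold, adjusted p = 8.9e-05, limma). Neither overlapped its controls. ENU, the compound with the largest FAS and APAF1 responses, gave 0.14 ± 0.19 (7.18, 7.50 and 8.12), and its CASP6 response was below that of MMS by 0.82 (adjusted p = 0.0018, limma) and below that of GAD by 0.68 (adjusted p = 2.2e-05, limma). MMS and GAD differed by 0.14 (95% interval -0.24 to 0.52). The second probe set rose in the same compounds, by 0.86 ± 0.14 in MMS and 0.69 ± 0.11 in GAD.

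**Figure D4:**
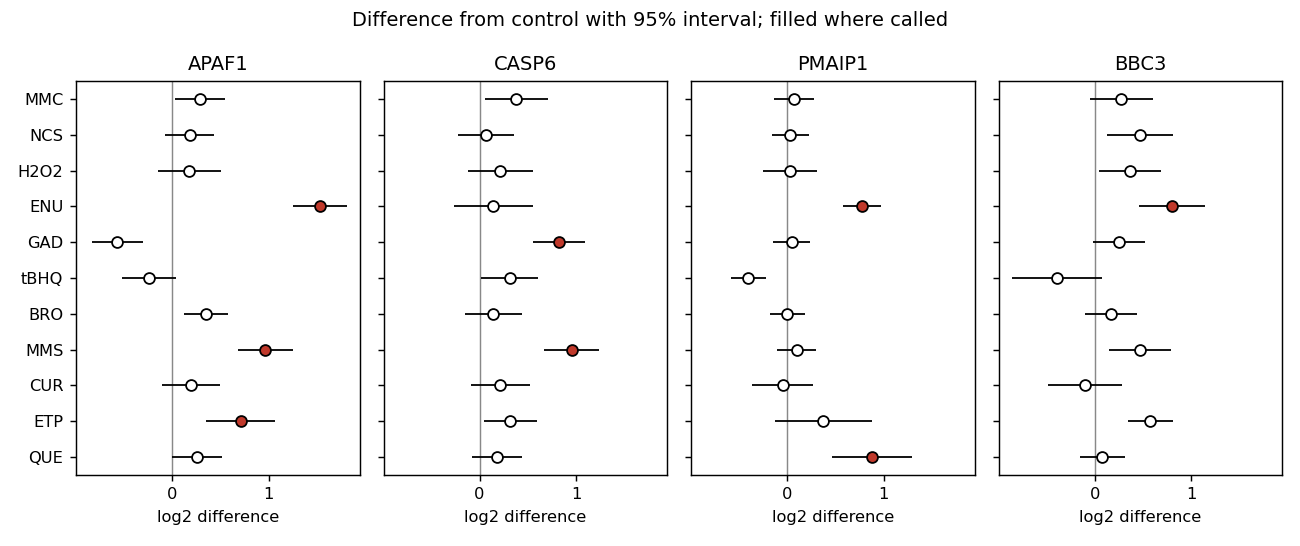
Log2 difference from control (horizontal axis) with its 95% interval for APAF1, CASP6, PMAIP1 and BBC3 in each compound (vertical axis); filled points were called. ENU is filled for APAF1 (1.53), PMAIP1 (0.77) and BBC3 (0.80) but not for CASP6 (0.14), and MMS is filled for APAF1 and CASP6 (0.96 each).

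BCL2L1, the gene of the survival protein BCL-xL, rose in as many compounds as FAS but by less. The called rises were 0.84 ± 0.15 in MMS (6.76, 6.93 and 7.07 against 5.45, 6.15 and 6.48), 0.82 ± 0.12 in QUE (7.34, 7.51 and 7.79 against 6.36, 6.72 and 6.97) and 0.77 ± 0.14 in GAD (7.19, 7.23 and 7.32 against 5.79, 6.56 and 6.79). Their adjusted p-values were 0.0013, 0.0018 and 0.00033 in limma, and no treated sample overlapped the controls. ENU gave 0.69 ± 0.14 (7.12, 7.13 and 7.35, adjusted p = 0.0027), ETP 0.65 ± 0.14 (7.41, 7.47 and 7.99 against 6.57, 6.94 and 7.32, adjusted p = 0.023), CUR 0.63 ± 0.11 (6.46, 6.91 and 7.13 against 6.11, 6.23 and 6.33, adjusted p = 0.0094) and NCS 0.61 ± 0.16 (6.73, 7.08 and 7.34, adjusted p = 0.041), all in limma. In NCS 5 of 6 samples, and in the other 3 every sample, were above every control. CUR was the compound in which BCL2L1 was the only member called by its representative probe set.

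Several of these rises were close to the fold minimum. Without number 2 the ETP value was 0.57 ± 0.13 (adjusted p = 0.017), under 0.585, while the QUE value was 0.86 ± 0.13 (adjusted p = 0.0002). The ETP call was also lost without ETP_DMSO replicate 3 (0.58), 5 (adjusted p = 0.059) or 6 (adjusted p = 0.061). The NCS call was lost when any of 10 of the 12 libraries was left out, at 0.47 without DMSO_pooled replicate 3 (5.79, the lowest control), and the ENU call at 0.55 without that library. The CUR call was lost without CUR replicate 4 (0.57) and after quantile normalization (0.56). BRO gave 0.50 ± 0.09 (adjusted p = 0.0016, limma), 1.42-fold, with 5 of 6 samples above every control, and in H2O2 all 5 samples (7.05, 7.05, 6.84, 6.96 and 7.07) were above every control without a call (0.52 ± 0.16, adjusted p = 0.14).

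tBHQ was the exception for BCL2L1, with 6.21, 6.48 and 6.67 and a difference of -0.02 ± 0.15 (95% interval -0.35 to 0.30). All 7 pairs called for this gene were against tBHQ, with the 7 compounds in which it rose above it by 0.63 to 0.86. Among those 7 no pair was called. A dimmer probe set (231228_PM_at) was called higher in NCS, H2O2, ENU, GAD and QUE, where its control mean was under 4 in all but QUE. The rises are at least 0.47 to 0.54 in the first 4, bounds under the fold minimum, and 0.82 ± 0.09 in QUE.

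**Figure D5:**
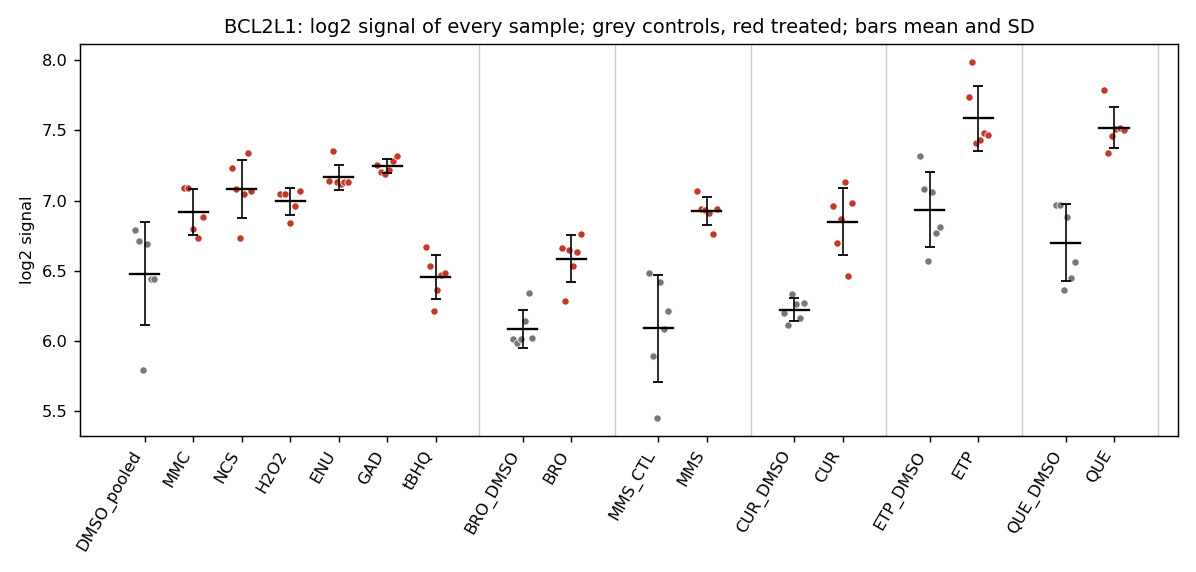
BCL2L1 log2 signal (vertical axis) of every sample by group (horizontal axis), controls in grey and treated samples in red, with vertical lines between sets; horizontal bars are means and whiskers SD. Treated means lie above their controls in 10 of 11 compounds, and tBHQ (6.21 to 6.67) overlaps DMSO_pooled (5.79 to 6.79).

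Set side by side, the compounds differed in which members they raised. ENU raised FAS, APAF1, BBC3, PMAIP1 and BCL2L1, 5 of 10 genes, where 4.77% of 11496 genes were called higher and 6.08% lower. MMS raised FAS, APAF1, CASP6 and BCL2L1 (4.39% of genes), and ETP raised FAS, APAF1 and BCL2L1 (1.96% higher, 0.557% lower). The ETP set turned on number 2. Without that library BCL2L1 (0.57) was not called in ETP, and BBC3 (0.63) and BIK (0.79) were called higher. In that setting 2.04% of all probe sets were called higher. QUE raised FAS, PMAIP1 and BCL2L1 (6.36%). In NCS FAS, BIK and BCL2L1 were called higher (1.41%), BIK with a bound under the fold minimum. The NCS calls of BIK and BCL2L1 were lost when any 1 of 11 and of 10 of the 12 libraries was left out. GAD raised FAS, CASP6 and BCL2L1 (11.1%) and lowered BCL2L11 (15.0%). BRO raised FAS alone (2.44% higher, 4.92% lower), CUR BCL2L1 alone (1.1% and 0.826%), and MMC and H2O2 none by the representative probe sets (0.13% and 0.678%). With the replicate block FAS was called in CUR (adjusted p = 0.0051, limma) and H2O2 (adjusted p = 0.026) as well. Without the block, 1 other FAS probe set was called in each of CUR and H2O2. tBHQ raised none (5.38%) and lowered BCL2L11 (4.43%).

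The rest of the pathway was read from lists of 52 further genes, 37 of them tested, by 1 probe set for each gene. In GAD 5 of the 37 were called higher and 4 lower, where 11.1% of all genes were called higher and 15.0% lower, so these counts lie near the background. The counts higher and lower were 6 and 1 in QUE (6.36% and 6.56% of all genes), 5 and 1 in ENU (4.77% and 6.08%), 3 and 1 in MMS (4.39% and 6.46%) and 2 and 2 in BRO (2.44% and 4.92%). They were 3 and 1 in NCS (1.41% and 0.835%), 3 and 0 in ETP (1.96% and 0.557%), 3 and 0 in H2O2 (0.678% and 0.13%) and 2 and 0 in MMC (0.13% and 0.0%). tBHQ had 1 and 0 (5.38% and 4.43%), and CUR had 0 and 0 (1.1% and 0.826%), where 9 of the 37 had an unadjusted p under 0.05 in limma. The share of all genes at that unadjusted threshold is not given here, so the 9 are not read against it. Among p53 targets tied to cell death, TP53INP1 rose in 9 compounds (up to 2.05 in ETP), TP53I3, a quinone oxidoreductase, in 7 (up to 2.48 in ENU) and PHLDA3, an inhibitor of AKT, in 7 (up to 1.25 in ENU). AEN rose in GAD and QUE and ZMAT3 in QUE.

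Of the other death receptors TNFRSF21, also called DR6, fell in 4 compounds, by 1.88 in GAD, 1.10 in MMS, 0.64 in ENU and 0.60 in BRO. FAS rose in the same 4. In the receptor complex CFLAR, an inhibitor of caspase 8 activation, fell in GAD by 0.84, CASP10 rose in ENU (4.22 against a control mean of 3.55, under 4), and FADD, TRADD and CASP8 were called in none. BAK1, the partner effector of BAX, rose in ENU (0.68 ± 0.12), GAD (0.75 ± 0.10) and BRO (0.67 ± 0.10). Of the survival genes other than BCL2L1, BCL2A1 rose in tBHQ (1.45 ± 0.22) and QUE (1.70 ± 0.46), BCL2 fell in GAD, from 4.97 to a mean under 4 (adjusted p = 4.4e-06, limma), and in NCS it fell by 0.83 ± 0.17 (adjusted p = 0.013, limma). These survival genes turned on the libraries labelled number 2: without them BCL2A1 was 2.17 ± 0.23 in QUE and -0.92 ± 0.21 in ETP (adjusted p = 1.7e-05 and 0.018, limma), and BCL2 was 1.43 ± 0.24 in QUE and -0.77 ± 0.12 in ETP (adjusted p = 0.00052 and 0.003, limma). BCL2L2 was called in no compound with all libraries and rose in QUE without number 2 (0.69 ± 0.07, adjusted p = 1.2e-05, limma), and MCL1 was called in none. With all libraries BCL2 had differences of 0.94 ± 0.48 in QUE and -0.34 ± 0.39 in ETP. Without number 2, QUE also gained calls for TNFRSF1A (-0.61 ± 0.11), BIRC6 (-0.68 ± 0.11) and CASP2 (0.59 ± 0.15). Among inhibitors of apoptosis BIRC5, survivin, fell in GAD (-0.76 ± 0.19) and QUE (-1.06 ± 0.27), and XIAP rose in GAD (0.63 ± 0.09). HTRA2, a protease released from mitochondria, fell in BRO (-0.63 ± 0.08), and CYCS, DIABLO, CASP9, AIFM1 and ENDOG were called in none.

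For the 3 members called in at least 3 compounds, the genes with the most similar profile of the 11 differences were found among 11495 others. For FAS they were ISCU (Pearson r = 0.95), ACER2 (0.95) and DUSP11 (0.94), of which ACER2 was called higher in 8 compounds. For APAF1 they were COBLL1 (0.90), OSR2 (0.90) and LNCAROD (0.90). For BCL2L1 they were PPM1F (0.94), TMEM14C (0.93) and TGFBRAP1 (0.91), whose own differences were small, from -0.32 to 0.64 over the 3. These r values are a description over 11 points, 6 of which share control samples, and ETP and QUE enter with number 2.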

How the data were processed

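Total RNA of HT1080 cells was measured on 101 Affymetrix HT HG-U133+ PM arrays. The authors deposited log2 probe set values; per the submitters' processing notes they come from GCRMA in Partek, and settings are not given in the sources used here. Array number and signal over background limit the precision. Levels differed between the 6 sets (median of all probe sets 2.89 to 3.52), so each compound was tested only against the control of its own set. Gene names came from the platform annotation, updated through RefSeq gene identifiers (40914 probe sets with 1 gene, 864 with several, 12835 with none). ETP_DMSO replicate 2 and the array labelled 2-2 differed least of that group's pairs (SD of difference 0.179, next pair 0.234) and were averaged as 1 replicate.

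Probe sets with a group mean of at least 4 in at least 1 of 17 groups were tested with limma 3.58.1 (lmFit and eBayes, R 4.3.3) and Benjamini-Hochberg adjustment over 21612 probe sets, and called at an adjusted p under 0.05 and 1.5-fold. A mean under 4 was taken as not well above background, and differences against it are bounds from 4. For the pairs of compounds, 1 limma model held all 17 groups. Intervals cover 95% and are not adjusted. All 10 members are named in every comparison; of each list up to 4 called genes a comparison with the largest change and any gene called in at least 6 compounds are named, and for members called in at least 3 compounds the 3 genes of the most similar profile. FADD, TRADD, CASP8, MCL1, BCL2L2 and 5 genes of the apoptosome list were named after their values were seen. The members and lists were chosen with earlier results of these data known. The fit was checked on drawn data with independent noise and known 2-fold or 4-fold shifts. It called from 79% (ETP) to 96% (NCS) of the 2-fold shifts. That check did not cover shared replicate deviations, libraries that go against their labels, or shifts near 1.5-fold.

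Samples with the same replicate number deviated from their group means together in every pair of MMC, NCS, H2O2, ENU, GAD, tBHQ, BRO, CUR and QUE (r 0.13 to 0.82), and were read as paired there. In MMS (r -0.27 to 0.34) and ETP (0.044 to 0.60) they were not. Without number 2 ETP had 0.12 to 0.71. The calls of every compound come from the fit without this pairing, and the replicate block is the paired alternative. Where samples were read as paired, the fit behind the calls therefore ignores the pairing. In each of those compounds the block gave more calls over all probe sets. Alternatives were no filter, a filter at 6, 1 probe set for each gene, means under 4 set to 4, equal medians, quantile normalization, trended robust variances, no fold minimum, 1 fit of all groups, the replicate block and leaving out each replicate. Leaving out number 2 of ETP and QUE in the pairwise test, in the block and in the lists was chosen after seeing the data.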

Additional observations from a re-analysis of the deposited data

Results flagged for a closer look

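In 18 of 170 groups, each of 1 gene in 1 group, the highest or lowest sample stood apart from the others by Dixon's test at 95%, where chance gives about 5%. For FAS, CUR_DMSO replicate 5 was at 6.25, below the others (7.20 to 7.49). For TNFRSF10B, NCS replicate 3 (12.01), H2O2 replicate 5 (11.90) and QUE replicate 3 (12.48) were the highest of groups with narrow ranges. For BBC3, QUE_DMSO replicate 3 was lowest at 4.38. For PMAIP1, BRO replicate 6 was highest at 9.82, and ETP replicate 3 (9.37) and ETP_DMSO replicate 3 (9.40) were lowest, each more than 0.5 below the next sample. For BIK, NCS replicate 1 (4.87) and MMS replicate 2 (3.49) were highest. For BCL2L11, NCS replicate 1 was lowest at 6.48. For BAX, MMS replicate 6 was highest at 9.74 and MMS_CTL replicate 4 lowest at 9.11. For APAF1, NCS replicate 5 (7.71) and BRO replicate 4 (7.51) were highest and MMS_CTL replicate 3 lowest (6.23). For BCL2L1, ENU replicate 2 was highest at 7.35 and DMSO_pooled replicate 3 lowest at 5.79.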

How the results depend on the processing

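No called difference of a member changed its direction under any alternative tried. By the representative probe sets, equal medians and a filter at 6 changed no call of the 110 and 88 differences they cover. Counts of member probe sets moved in these settings. Apart from the block, the share over all probe sets in each setting is not given here. These counts are therefore not read against the rest of the array. In MMC 3 were called higher with the replicate block and 4 with 1 fit of all groups, against 0. In NCS 5 were called with means under 4 set to 4 and with a filter at 6, and 3 with 1 probe set for each gene. In H2O2 the count went from 2 to 0 with means under 4 set to 4, to 1 with no filter, a filter at 6, 1 probe set for each gene or equal medians, to 4 with trended robust variances and to 6 with the block or 1 fit. With 1 probe set for each gene ENU had 5, GAD 3 higher and 1 lower, BRO 1, MMS 4, CUR 1, ETP 3 and QUE 3. With no fold minimum GAD and tBHQ had 7 lower each, BRO 8 higher, MMS 1 lower and ETP 11 higher. CUR had 1 with no filter or quantile normalization and 4 with the block or 1 fit. Leaving out 1 replicate gave 0 in MMC, 5 to 7 in NCS, 0 to 6 in H2O2, 11 to 12 in ENU, 9 higher and 2 to 3 lower in GAD, 1 to 2 lower in tBHQ, 4 to 5 in BRO, 8 to 10 higher and 0 to 1 lower in MMS, 0 to 5 higher and 0 to 1 lower in CUR, 5 to 8 in ETP and 8 to 9 in QUE. The count of NCS was 5 without NCS replicate 2, 4 or 5 or DMSO_pooled replicate 3 or 5. That of H2O2 was 0 without H2O2 replicate 5 or 6 or DMSO_pooled replicate 3, 4, 5 or 6, 1 without H2O2 replicate 1, 2 or 3, 5 without DMSO_pooled replicate 1 and 6 without replicate 2. Lower counts were 2 in tBHQ without DMSO_pooled replicate 3 and 1 in MMS without MMS_CTL replicate 3. That of CUR was 5 higher and 1 lower without CUR replicate 5, 0 without CUR replicate 4, and 1 without CUR replicate 1, 2, 3 or 6 or CUR_DMSO replicate 1, 4, 5 or 6. The pairs called for BAX went from 3 to 7 without number 2 of ETP and QUE. Over all probe sets the block moved the calls from 21 to 77 in MMC, 441 to 717 in NCS, 142 to 326 in H2O2 and 389 to 891 in CUR. Besides the calls named with their blocked values, the replicate block changed no call of a representative probe set. The cause of these shifts was not tested. Genes near the background, BIK above all, are limited by signal.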
